A study of Mus musculus with 282 samples.

Results

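Heat shock chaperones are proteins that hold other proteins while they fold, and 8 genes of this kind were followed here through the hypothalamus of the Hybrid Mouse Diversity Panel, a collection of inbred and recombinant inbred mouse strains. The members were the genes Hspa1a, Hspa1b, Hsph1, Dnajb1, Hspa8, Hsp90aa1, Hsp90ab1 and Hspb1, chosen by gene name and not by their values, and all 8 were found among the 14079 genes of the deposited expression table. A sequencing library was made from the whole hypothalamus of each of 282 mice, all male and all fed a high fat diet. The mice came from 99 strains, which the labels name, in the recombinant inbred sets AXB/BXA (18 strains from C57BL/6J and A/J), BXD (43 from C57BL/6J and DBA/2J), BXH (6 from C57BL/6J and C3H/HeJ) and CXB (7 from BALB and C57BL/6 mice), beside 25 classical inbred strains. All mice shared sex and diet, no group without the diet was compared, and the labels give no age.

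Cells keep HSP70, HSP90 and small heat shock proteins at work in a relay. HSP70 binds unfolded chains with the help of a J-domain protein that brings it a client and starts its ATP cycle and an HSP110 that exchanges its nucleotide, and it hands some clients, such as steroid hormone receptors and kinases, to HSP90, while small heat shock proteins hold unfolded protein without ATP. After heat or other stress that unfolds proteins, heat shock factor 1 (HSF1) is freed from the chaperones that hold it and binds inverted GAA units in the promoters of inducible members. Hspa8 and Hsp90ab1 are constitutive in brain, while Hspa1a, Hspa1b and Hspb1 are low there until they are induced.

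The inducible members are best introduced by their promoters, which are shown because they hold the letters that heat shock factors bind. Stretches of 250 bases before the RefSeq gene start (GRCm38.p6) were taken for 5 of the 8 members, Hspa1a, Hspa1b, Hsph1, Dnajb1 and Hspb1. For Hsph1 and Dnajb1, which had 2 starts, the start farthest upstream was used. The stretches are written 5′ to 3′ with capitals for GAANNTTC or TTCNNGAA, each of which reads the same on both strands. The stretches printed are chr17:34972157-34972406 (minus strand) for Hspa1a, chr17:34959239-34959488 (minus strand) for Hspa1b, chr5:149636337-149636586 (minus strand) for Hsph1 and chr5:135887669-135887918 (plus strand) for Hspb1.
Hspa1a: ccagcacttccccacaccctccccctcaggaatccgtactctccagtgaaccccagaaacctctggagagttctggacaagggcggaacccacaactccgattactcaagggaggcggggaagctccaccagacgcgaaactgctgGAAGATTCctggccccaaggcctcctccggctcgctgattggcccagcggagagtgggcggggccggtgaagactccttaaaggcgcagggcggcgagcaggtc
Hspa1b: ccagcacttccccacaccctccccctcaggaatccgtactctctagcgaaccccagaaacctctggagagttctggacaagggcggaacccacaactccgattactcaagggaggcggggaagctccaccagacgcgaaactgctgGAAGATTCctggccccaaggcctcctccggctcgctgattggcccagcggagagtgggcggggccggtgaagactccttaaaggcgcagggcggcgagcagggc
Hsph1: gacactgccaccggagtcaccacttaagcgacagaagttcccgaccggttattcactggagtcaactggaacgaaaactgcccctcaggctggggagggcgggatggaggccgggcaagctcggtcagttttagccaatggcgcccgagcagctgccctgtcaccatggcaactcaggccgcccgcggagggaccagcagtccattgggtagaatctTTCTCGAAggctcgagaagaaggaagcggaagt
Hspb1: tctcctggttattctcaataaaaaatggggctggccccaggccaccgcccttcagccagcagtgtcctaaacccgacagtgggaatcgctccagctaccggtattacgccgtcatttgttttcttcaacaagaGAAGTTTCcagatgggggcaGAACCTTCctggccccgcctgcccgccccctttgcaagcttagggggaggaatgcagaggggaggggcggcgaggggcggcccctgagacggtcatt
At least 1 match was present in 4 of these 5 stretches, in the Dnajb1 stretch there was none, and 12.8% of all 32851 promoter stretches of this length held at least 1. Hspb1 held 2 matches, which 1.46% of all stretches equalled or exceeded. The genes of Hsph1 and Hspb1 in the authors' assembly, given below, begin upstream of the RefSeq start. The matches of these genes therefore lay inside the assembled genes. The Hspa1a and Hspa1b stretches were 98.8% identical and differed at 3 of 250 positions, which are C44T, T47C and T249G when counted from 1 at the 5′ end with the Hspa1a base first. A match describes letters and was not tested as a binding site.

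Expression was given by the authors as FPKM, which are fragments scaled to transcript length and to the fragments sequenced, so levels can be set side by side per length. Tests were made on log2(FPKM + 1), on which fold changes of low genes are understated. A mouse whose title and strain label name different strains and BXD-12/TyJ replicate 2 (replicate numbers only name the mice of a strain), whose gene FPKM summed to 792801, were left out, which left 280 mice of 99 strains, with 3 mice in 84 strains, 2 in 13 and 1 in 2. Among these, CXB-3/ByJ replicate 3 also stood apart with a sum of 463433, against a median of 337467 and at most 359916 in every other mouse. Its Hspa8 transcripts differed from those of its mates, as shown with the transcripts. Several results that rest on it are given with and without it, but correlations with genes outside the members are given only with it. Markers of neighbouring tissue varied widely between mice. The summed level of 6 anterior pituitary markers ran from 0.589 to 16500 FPKM and that of 5 choroid plexus markers from 7.25 to 2100 FPKM. The sum of 5 neuron markers ran from 911 to 1480 FPKM, and its largest part was Snap25, at 455 to 1010 FPKM. Single neuron markers varied more, with Syt1 at 34 to 320 FPKM and Slc17a6 at 21.5 to 128 FPKM. Whether the dissections differed was not tested. In whole tissue, fewer cells of a type and less RNA per cell cannot be told apart.

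All 8 members differed between strains. Of all 14079 genes, 81.3% passed the same test (limma's moderated F test over 99 strains with Benjamini-Hochberg adjustment over all genes at a threshold of 0.05), so 8 of 8 is close to that background. The strain share, the part of the variance between mice that lay between strains, had a median of 0.484 over the members and 0.252 over all genes. The shares ranged from 0.246 at the Hspa1b locus to 0.654 for Hsph1. The p-values measure the spread between mice of a strain, and the strains are related to each other. For each member below, the extreme strains were picked by these same values from the 97 strains with at least 2 mice. A lack of overlap between them is therefore a description and not a test.

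The stress-inducible HSP70 pair was expressed at low levels, far under the constitutive Hspa8. Hspa1a (chr17:34969199-34972154, minus strand) ran from 0.165 to 4.70 FPKM with a median of 1.07, and its strain share was 0.443 (adjusted p = 9.7e-12, limma). The lowest strain, NON/LtJ, had 0.406, 0.426 and 0.552 FPKM. The highest, CXB-3/ByJ, had 1.93, 1.38 and 4.70 FPKM, where the last value is replicate 3, so its 5.79-fold higher mean leaned on 1 library. Next came BXD-11/TyJ with 1.83 and 2.68 FPKM, which did not overlap with NON/LtJ.

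Hspa1b lies next to Hspa1a, and the assembly joined it with its neighbour 1110038B12Rik into 1 locus (chr17:34949953-34959238, minus strand), so the locus is reported beside the single Hspa1b transcript (chr17:34956436-34959238). The locus ran from 7.67 to 30.2 FPKM, with a strain share of 0.246 (adjusted p = 0.00011, limma). The transcript ran from 0 to 4.64 FPKM with a median of 0.611 and had a strain share of 0.57 (adjusted p = 1.4e-18, limma, over all transcripts). BUB/BnJ was highest for the transcript with 3.26, 3.31 and 3.14 FPKM, and AXB-5/PgnJ lowest with 0.146, 0.242 and 0 FPKM. Because Hspa1a and Hspa1b are near-identical copies, reads could be split between them, and the level of each is uncertain.

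Hsph1, the HSP110 that recharges HSP70, had the largest strain share of the 8 members. Its level (chr5:149614287-149636376, minus strand) ran from 70.4 to 144 FPKM with a median of 89.5, and the strain share of 0.654 was above that of 93.6% of genes (adjusted p = 1.2e-25, limma). CE/J had 70.4, 75.4 and 74.4 FPKM and BXD-11/TyJ 126 and 144 FPKM, a 1.84-fold difference of the means with no overlap. BALB/cJ was the second highest with 114, 127 and 128 FPKM, also above every CE/J mouse. The mouse farthest from its strain was BXD-20/TyJ replicate 3, at 125 FPKM against a mean of 78.1 FPKM in its mates.

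Dnajb1, the J-domain partner of HSP70, moved over a narrower range. It (chr8:83608175-83611902, plus strand) ran from 14.0 to 27.0 FPKM with a strain share of 0.381 (adjusted p = 9.9e-09, limma). BXD-15/TyJ had 17.0, 14.3 and 14.0 FPKM and BXD-11/TyJ 23.7 and 27.0 FPKM, a 1.68-fold difference with no overlap.

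Hspa8, the constitutive HSP70 that also uncoats clathrin vesicles, was the most abundant HSP70 of the members. It (chr9:40800380-40805236, plus strand) ran from 230 to 629.4 FPKM with a median of 324, and its strain share was 0.547 (adjusted p = 1.7e-17, limma). SJL/J had 230 and 244 FPKM and BXD62 had 547.9, 503.7 and 472.6 FPKM, a 2.14-fold difference with no overlap. The single highest value belonged to no high strain, since BXD-32/TyJ replicate 3 had 629.4 FPKM and its mates had 302 and 345 FPKM.

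By gene FPKM, the 2 cytosolic HSP90 genes were the most abundant members. Hsp90ab1, the constitutive form (chr17:45567775-45573271, minus strand), ran from 532.9 to 833 FPKM with a median of 604, and mice of 1 strain differed by an SD of 0.0607 log2 units, lower than in all but 0.369% of genes. Its strain share was 0.494 (adjusted p = 7.2e-13, limma), although the strain means spanned only 1.29-fold, from BXD85 with 532.9, 550.5 and 571.3 FPKM to BXD-11/TyJ with 711 and 707 FPKM. Hsp90aa1, the inducible form (chr12:110690605-110702728, minus strand), ran from 312.8 to 648 FPKM with a median of 497 and a strain share of 0.473 (adjusted p = 4.2e-13, limma). A/J was lowest with 357.5, 325 and 378.1 FPKM and BXHA1 highest with 593 and 643 FPKM, a 1.75-fold difference with no overlap. The Hsp90aa1 gene level holds short transcripts, and its 2 transcripts with all 11 exons had a summed median of 177 FPKM, under the gene median of Hspa8.

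Hspb1, the small heat shock protein also called HSP25 in mice, varied most within strains on log2(FPKM + 1). That scale understates the spread of lower genes such as Hspa1a more. Hspb1 (chr5:135887778-135889697, plus strand) ran from 1.95 to 21.1 FPKM with a median of 5.03, a within-strain SD of 0.303 log2 units and a strain share of 0.521 (adjusted p = 4.4e-16, limma). Ranked by the mean of log2 values, BXD-39/TyJ was highest with 9.73, 11.7 and 9.90 FPKM and 129X1/SvJ lowest with 3.03, 1.95 and 3.24 FPKM, a 3.81-fold difference with no overlap. The highest value, 21.1 FPKM, again came from CXB-3/ByJ replicate 3.

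A few strains were high for several members at once. Among the 97 strains with at least 2 mice, BXD-11/TyJ ranked 1 for Hsph1, Dnajb1 and Hsp90ab1, 2 for Hspa1a, Hsp90aa1 and the Hspa1b transcript, and 5 for Hspb1, but 32 for Hspa8. BALB/cJ ranked 2 for Hsph1 and Hsp90ab1, 3 for the Hspa1b transcript, 4 for Hspa1a, 5 for Hsp90aa1 and 30 for Hspa8. BUB/BnJ ranked 1 for the Hspa1b transcript, 3 for Dnajb1 and Hsp90ab1, 5 for Hsph1 and Hspa1a and 26 for Hspa8. These strains were picked by their ranks, so the ranks are a description.

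**Figure D1:**
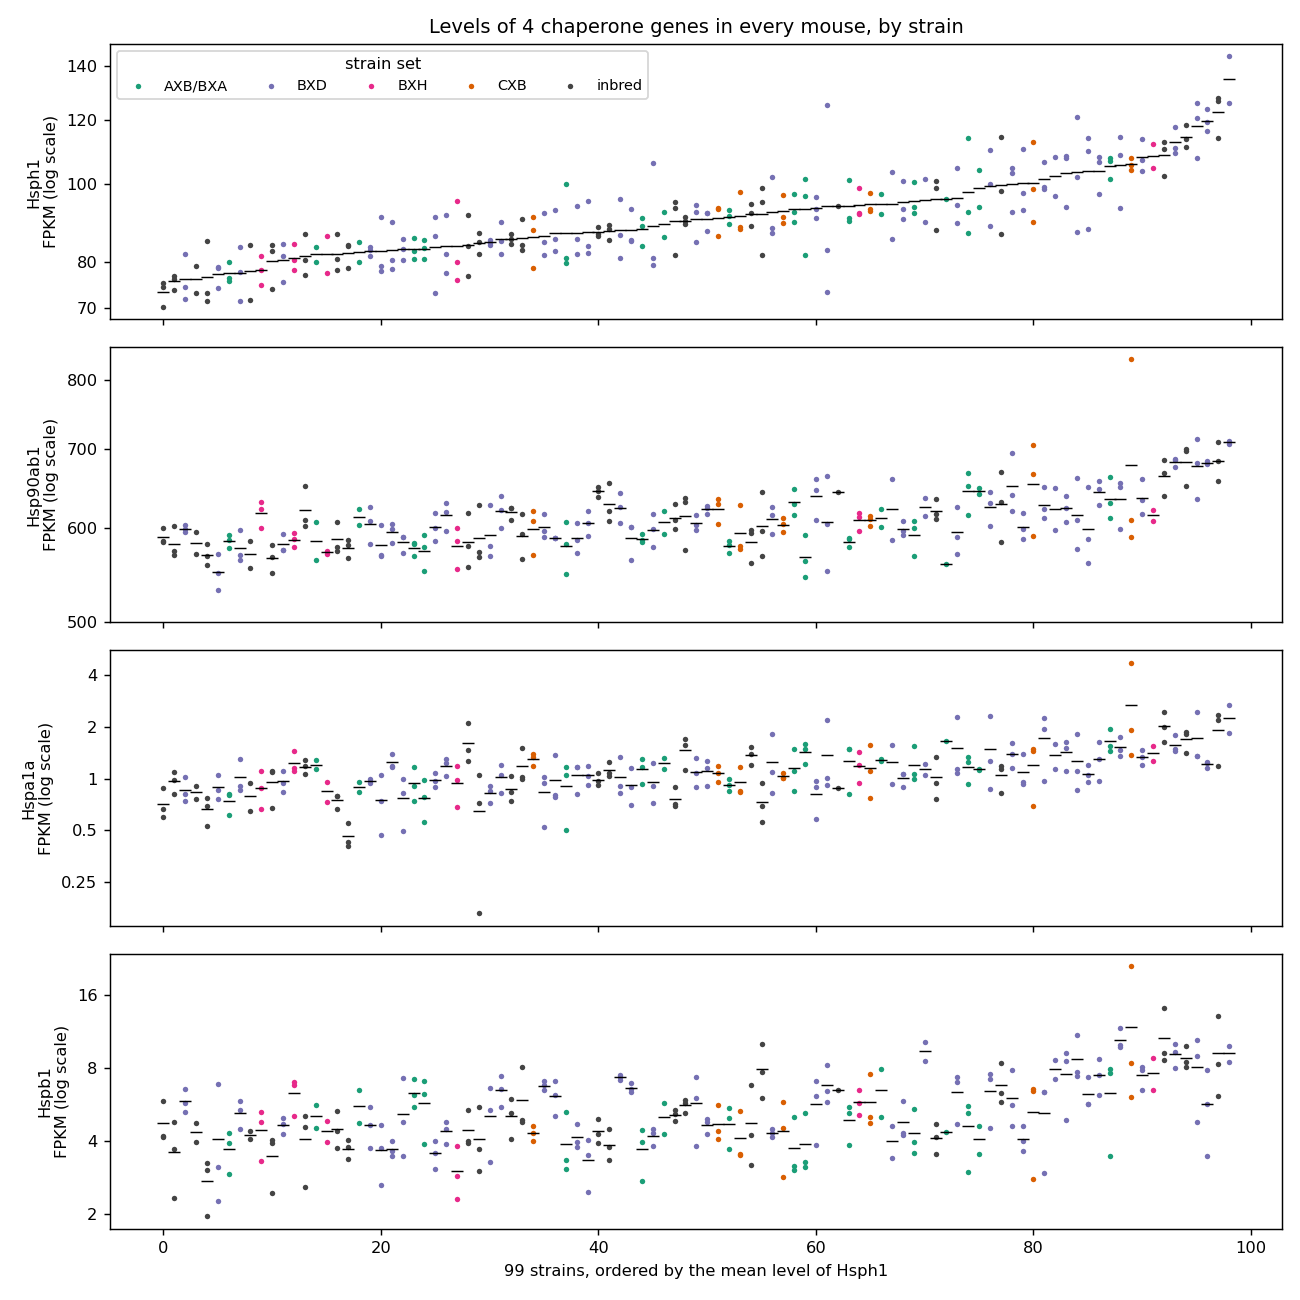
Level in FPKM (log scale) of Hsph1, Hsp90ab1, Hspa1a and Hspb1 in each of 280 mice (points, coloured by strain set) and as strain means (bars), with the 99 strains ordered by their mean Hsph1 level in every panel. The strain means of the other 3 genes tend to be higher towards the right, where Hsph1 is high, and the single CXB point at the top of the lower 3 panels is CXB-3/ByJ replicate 3.

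Strain differences were also tested within each set, in the same fit. In the BXD set, 7 of 8 members passed, against 60.9% of all genes, and the exception was the Hspa1b locus. Among the classical inbred strains, 8 of 8 passed, against 58.2%. In the AXB/BXA set, Hsph1, Hspa8, Hsp90aa1 and Hsp90ab1 passed, 4 of 8 against 30.2%, and in the BXH set Hsph1, Hspa8, Hsp90aa1 and Hspb1, 4 of 8 against 25.4%. In the CXB set, Hspa1a, Hsp90ab1 and Hspb1 passed, 3 of 8 against 29.5%, but the strain share of Hsp90ab1 there was -0.0441. CXB-3/ByJ replicate 3 belongs to this set, and without it all 3 calls were lost (adjusted p = 0.41, 0.21 and 0.32, limma). Over the 5 sets the members passed 26 of 40 tests. Without that library it was 25 of 40, with Hspa1a in the AXB/BXA set and the Hspa1b locus in the BXH set added (adjusted p = 0.02 and 0.04, limma). The share of all genes that passed also moved without it. It was then 35% in the AXB/BXA set, 67.5% in BXD, 29.2% in BXH, 15.7% in CXB and 63.6% among inbred strains. The largest share within a set was that of Hsph1 among inbred strains, 0.791 (adjusted p = 1.5e-16, limma), and Hspa8 had 0.749 in the AXB/BXA set (adjusted p = 7.2e-06, limma).

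The parents of the sets were compared with C57BL/6J, which was shared by all 4 comparisons. In BALB/cJ, 3 of 8 members were higher, against 8.29% of all genes in either direction. Hspa1a was 0.709, 0.894 and 0.691 FPKM in C57BL/6J and 1.19, 2.18 and 2.34 FPKM in BALB/cJ, a log2 difference of 0.70 ± 0.16 (SE, adjusted p = 0.00079, limma). Hsph1 was 93.2, 94.9 and 81.6 FPKM in C57BL/6J and 114, 127 and 128 FPKM in BALB/cJ, a log2 difference of 0.45 ± 0.091 (SE, adjusted p = 8.8e-05, limma). The groups did not overlap for either gene. Hsp90ab1 was 628.6, 609.1 and 599.3 FPKM in C57BL/6J and 683.5 ± 25.7 FPKM (SD, n = 3) in BALB/cJ, whose lowest mouse had 657.7 FPKM, so the groups again did not overlap, with a log2 difference of 0.16 ± 0.051 (SE, adjusted p = 0.034, limma). Hspb1 averaged 9.19 FPKM in BALB/cJ and 5.13 FPKM in C57BL/6J, which did not pass (adjusted p = 0.07, limma). Of the 3, the call of Hsph1 held with each replicate left out, that of Hspa1a was lost without replicate 2 (adjusted p = 0.064, limma), and that of Hsp90ab1 was lost without any 1 replicate (adjusted p = 0.056 to 0.33, limma), with quantile normalization (log2 difference 0.10, adjusted p = 0.44) and with the omitted BXD-12/TyJ mouse put back (adjusted p = 0.053).

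In A/J, 1 of 8 members passed, against 9.64% of all genes. It was Hsp90aa1, with 357.5, 325 and 378.1 FPKM in A/J and 462.4, 570.5 and 460.2 FPKM in C57BL/6J, a log2 difference of -0.49 ± 0.11 (SE, adjusted p = 0.00082, limma) with no overlap. The call was lost without replicate 2 (log2 difference -0.33, adjusted p = 0.28, limma) and with quantile normalization (adjusted p = 0.15). In DBA/2J no member passed, against 8.57% of genes, and in C3H/HeJ none passed, against 9.26% (limma, 0 of 8 in both, with 2 and 1 at an unadjusted p under 0.05). The pair in DBA/2J was Hspa8, at 284 against 362 FPKM (log2 difference -0.34 ± 0.13, SE, adjusted p = 0.079, limma), and the Hspa1b locus, at 17.0 against 13.3 FPKM (log2 difference 0.34 ± 0.16, SE, adjusted p = 0.2, limma).

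**Figure D2:**
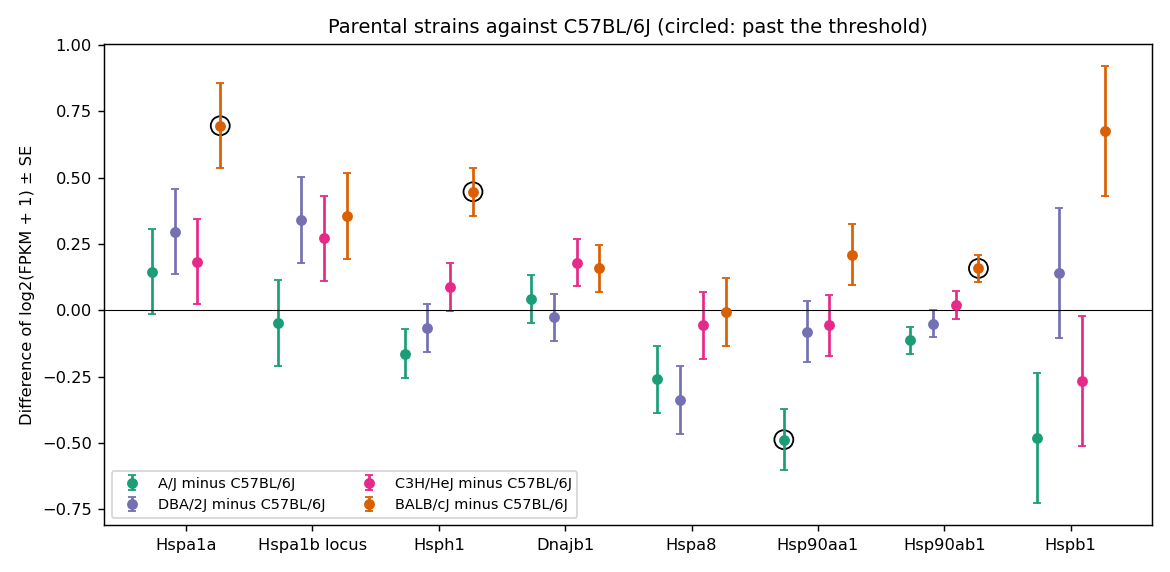
Difference in log2(FPKM + 1) between each parental strain and C57BL/6J (points, with bars of 1 SE from limma) for the 8 members, where circles mark an adjusted p under 0.05. BALB/cJ lies above C57BL/6J for Hspa1a, Hsph1 and Hsp90ab1, and A/J lies below it for Hsp90aa1.

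Whether the members moved together was asked at 2 levels, between mice of the same strain (deviations from the strain mean, n = 280 mice) and between strains (n = 99 strain means). For every member, each other gene was fitted with limma and adjusted over all genes. Of the 28 pairs of members, 20 passed within strains, 19 of them positive, with a median r of 0.269, and 17 passed over strain means, all positive, with a median r of 0.343. With the Hspa1b transcript in place of its locus, an alternative chosen after seeing the data, the counts were 21 and 23 of 28, all positive.

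Hsph1 and Hsp90ab1 formed the firmest pair. Within strains, their r was 0.562 and rho 0.53 (permutation p = 1e-05 for each, the smallest that 100000 permutations can give, adjusted p = 6.4e-12, limma), and r was 0.53 without the 2 mice farthest from the median. Over strain means r was 0.779 and rho 0.702 (permutation p = 1e-05 for each, adjusted p = 4.4e-16, limma), and r was 0.734 without 2 strains. The strain-mean r was positive in every set, from 0.469 in the AXB/BXA and BXH sets to 0.892 in the CXB set. Hsph1 and Hsp90aa1 were as close within strains, with an r of 0.556 and rho of 0.506 (permutation p = 1e-05 for each, adjusted p = 1.5e-12, limma) and an r of 0.518 without 2 mice. These 2 pairs were the ones among the 20 that passed in all of the 17 alternatives computed for them, with r between 0.485 and 0.704.

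The other pairs were weaker, and several rested on few mice. Between Hspa1a and Hsp90ab1, r within strains was 0.471 and rho 0.324 (permutation p = 1e-05 for each, adjusted p = 8e-07, limma), and r fell to 0.374 without CXB-3/ByJ replicate 3. Between Hspa1a and the Hspa1b transcript, r was 0.53 and rho 0.423 (permutation p = 1e-05 for each, adjusted p = 1.5e-10, limma), and reads shared between these copies would enter that value. Without CXB-3/ByJ replicate 3, 13 of 28 pairs passed within strains and the median r was 0.227 in place of 0.269. With 5 principal components of the within-strain variation as covariates, 8 pairs passed, and after quantile normalization 9. When each replicate was left out in turn, between 3 and 14 passed.

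Counted by member, the number of partners that passed can be read against all genes. Within strains, 6 of the other 7 members passed positively with Hsph1, against 4.21% of all genes, and 5 of 7 with the Hspa1b transcript, against 1.7%. For Hspa1a it was 6 of 7 against 11.1%, for Dnajb1 6 of 7 against 17.6%, for Hspa8 5 of 7 against 8.42%, for Hspb1 5 of 7 against 12.5% and for Hsp90ab1 6 of 7 against 23.1%. The Hspa1b locus had 3 of 7 against 16.9%. Hsp90aa1 had 1 positive partner, Hsph1, against 22.4% of genes, and 1 negative partner, the Hspa1b locus, against 24.7%, while its 11-exon transcripts passed positively with Hsph1 and Hsp90ab1 and no longer with the locus (r = -0.0631, adjusted p = 0.55, limma).

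Over strain means the background was lower. Hsph1 had 6 of 7 partners against 3.47% of genes, Hspa1a 6 of 7 against 1.11%, Hsp90ab1 6 of 7 against 2% and the Hspa1b transcript 6 of 7 against 1.21%. Hspb1 had 5 of 7 against 4.3%, Hspa8 4 of 7 against 4.52%, Hsp90aa1 4 of 7 against 1.34% and Dnajb1 3 of 7 against 1.47%. The Hspa1b locus had none of 7 against 2.91% (limma, 3 at an unadjusted permutation p under 0.05). Hsph1 reached an r of 0.727 with Hspa1a and 0.638 with Hspb1 over strain means (rho 0.697 and 0.555, permutation p = 1e-05 for each), and 0.699 and 0.602 without the 2 farthest strains. The Hsph1 and Hspa1a r lay between 0.679 and 0.795 in the 5 sets, while that of Hsph1 and Hspb1 was 0.0111 in the AXB/BXA set and 0.603 to 0.824 in the other 4.

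**Figure D3:**
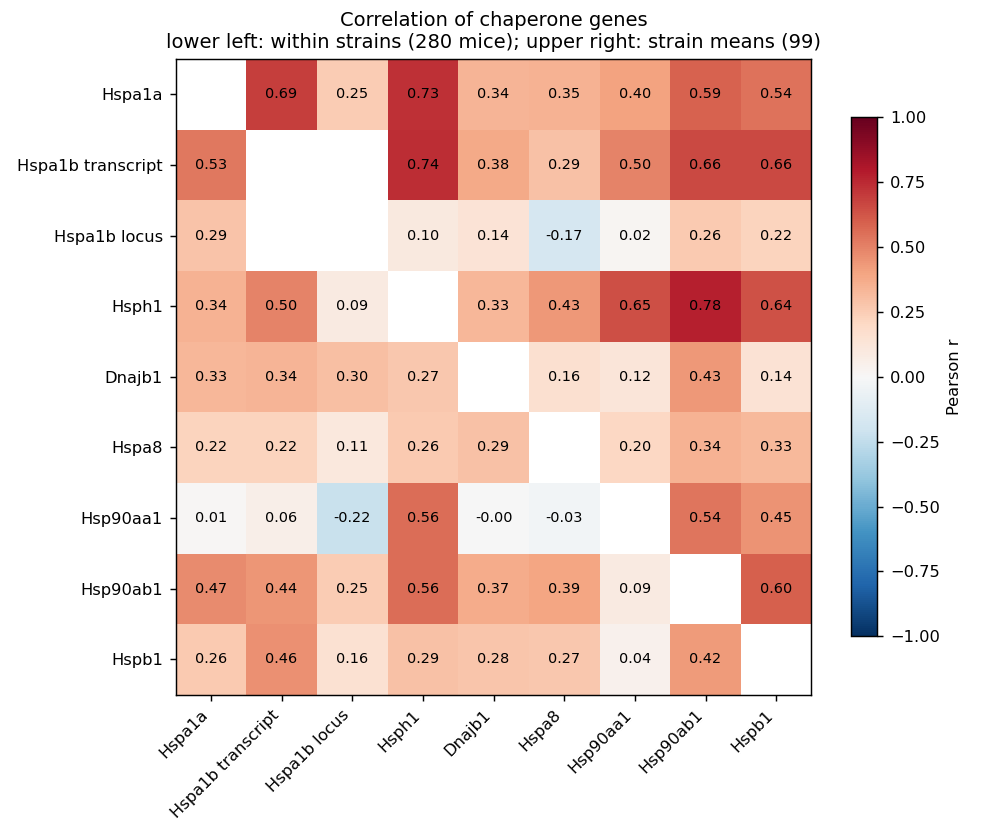
Pearson r between the members, with deviations within strains (280 mice) in the lower left and strain means (99 strains) in the upper right, where red is positive and blue negative. The row and column of Hsph1 hold the strongest values at both levels, and Hsp90aa1 is close to 0 within strains with every other member but Hsph1 and the Hspa1b locus.

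Hsp90aa1 and Hsp90ab1, whose proteins share most of their clients, had an r within strains that depended on how Hsp90aa1 was counted. With the gene level their r was 0.0868 (rho 0.123, permutation p = 0.4 and 0.096, adjusted p = 0.36, limma). With the 11-exon Hsp90aa1 transcripts, an alternative chosen after seeing the data, it was 0.339 and passed (adjusted p = 6.5e-05, limma). The gene-level r was 0.208 without CXB-3/ByJ replicate 3, which was lowest of its strain in Hsp90aa1 (404 against 551 and 553 FPKM) and highest in Hsp90ab1 (833 against 590 and 610 FPKM). Over strain means their r was 0.536 and rho 0.544 (permutation p = 1e-05 for each, adjusted p = 7.1e-05, limma), and 0.523 without 2 strains. The first principal component of the within-strain variation, which held 8.36% of it, correlated at -0.556 with Hsp90aa1 and at 0.434 with Hsp90ab1. The 3 microglia markers had a median sum of 111 FPKM, most of it from Aif1, whose locus is merged with Lst1 and Prrc2a, and the sum correlated at -0.428 with Hsp90aa1 and at 0.37 with Hsp90ab1 within strains. Singly, 1 of the 3 passed positively and 1 negatively with Hsp90aa1, and 1 positively and 2 negatively with Hsp90ab1, and their part in the result was not tested.

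The ratio of the HSP90 genes, each with 1 FPKM added, also differed between strains. It had a median of 0.811 Hsp90aa1 per Hsp90ab1 over mice, with a strain share of 0.311 (permutation test, p = 1e-05, the smallest possible). It was 0.602 and 0.616 in the 2 mice of BXA-24/PgnJ, the lowest strain, and 0.945, 1.02 and 1.05 in BXD44, the highest. Leaving out the second replicate of every strain lowered the share to 0.156 (permutation p = 0.091). The Hsp90aa1 gene level in this ratio holds a 325 nt transcript, shown with the transcripts. That transcript averaged 194 FPKM over mice and 77.2 FPKM in BXA-24/PgnJ. The 11-exon Hsp90aa1 transcripts had a summed median of 177 FPKM, and strain differences in their ratio to Hsp90ab1 were not tested. For the HSP70 copies, the Hspa1b transcript was set against the Hspa1a gene level, which averaged 1.14 FPKM. The Hspa1a transcript, which was not used, averaged 0.794 FPKM with a strain share of 0.22. The ratio of the Hspa1b transcript to the Hspa1a gene level had a strain share of 0.456 (permutation test, p = 1e-05). It went from 0.527, 0.637 and 0.65 in BXH-4/TyJ to 1.45, 1.66 and 1.74 in SWR/J. At these low levels the added value shapes the ratio, which ran from 0.516 to 1.79 over mice with 1 FPKM added and from 0.111 to 3.0 with 0.1 FPKM added.

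The genes most like each member differed between members. For Hsp90ab1 the highest within-strain r over 280 mice belonged to Stip1 (0.756), the HOP protein that links HSP70 to HSP90, Cct5 (0.66), Rangap1 (0.616), Cct7 (0.607) and Ahsa1 (0.606), an activator of the HSP90 ATPase. Cct5 and Cct7 are subunits of the ring-shaped chaperonin that folds actin and tubulin. For Hsph1 they were Stip1 (0.656), the HSP90 partner Chordc1 (0.561), Hnrnpc (0.561), the endoplasmic reticulum HSP70 Hspa5 (0.537) and the mitochondrial chaperonin Hspd1 (0.532). Fkbp4, an HSP90 co-chaperone of steroid receptors, was first for Dnajb1 (0.498) and the second for Hspa1a (0.453), where Ahsa1 led (0.462). Hspa8 was led by Ahsa1 (0.437), Jkamp (0.382) and the glycolytic enzyme Aldoa (0.372). These values include CXB-3/ByJ replicate 3. For Hsp90ab1, rho was lower than r for each gene named, at 0.684 for Stip1, 0.479 for Cct5 and 0.452 for Cct7. For Hspa1a, rho was 0.351 with Ahsa1 and 0.296 with Fkbp4. For Hspa8 it was higher than r, at 0.462 with Ahsa1.

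Hspb1 and the Hspa1b transcript had neighbours from the secretory pathway. Serpinh1, the collagen chaperone HSP47 (0.492), and the calcium-binding chaperone Calr (0.483) led for Hspb1, and Hspa5 (0.514), Sdf2l1 (0.48) and Dnajb11 (0.453) for the transcript. Hsp90aa1 had Dnm1l (0.644), which divides mitochondria, G3bp2 (0.63) and Pja2 (0.623) as the genes most like it, and Srsf2 (-0.602), Dus3l (-0.593) and Rpl41 (-0.575) at the opposite end. The Hspa1b locus was led by Rps27a (0.46), Bmyc (0.432) and Eif1 (0.43). Cct5, Stip1, Fkbp4 and Calr each were among the 20 highest genes of 4 members, and Ahsa1, Creld2 and Hspa5 of 3.

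A list of 53 further genes of the cytosolic and mitochondrial chaperone system, of which 49 were measured, gave the same picture by count. With Hsph1, 27 of 49 passed positively within strains and 0 negatively (limma, against 4.21% and 2.72% of all genes), with a median r of 0.241 against -0.000355 over all genes. With Hsp90ab1 it was 28 positive and 4 negative (against 23.1% and 17.9%), with a median r of 0.231 against 0.0203. With Hsp90aa1 it was 15 positive and 11 negative (against 22.4% and 24.7%), with a median r of -0.0445 against -0.0226. Those that rose with Hsp90aa1 included the HSP110 gene Hspa4l (0.602) and Chordc1 (0.492), and those that fell included the kinase co-chaperone Cdc37 (-0.435). Dnajb1 had 26 positive and 3 negative (against 17.6% and 12.6%), the Hspa1b locus 22 and 4 (against 16.9% and 15.6%) and Hspb1 22 and 2 (against 12.5% and 9.96%). Hspa1a had 21 and 1 (against 11.1% and 8.64%), Hspa8 19 and 1 (against 8.42% and 5.04%), and the Hspa1b transcript 18 positive (against 1.7%). Over strain means, 28 of 49 passed positively with Hsph1, led by Stip1 (0.816), Hspd1 (0.777) and Chordc1 (0.754).

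Of 17 endoplasmic reticulum chaperone and stress genes, 14 passed positively with Hsp90ab1 within strains (against 23.1% of all genes), 13 with Hspb1 (against 12.5%), and 12 each with Hsph1 (against 4.21%), Hspa1a (against 11.1%) and Hspa8 (against 8.42%). Dnajb1 and the Hspa1b locus had 11 each (against 17.6% and 16.9%), as had the Hspa1b transcript (against 1.7%). None of the 17 passed negatively with these, and with Hsp90aa1 5 passed positively and 4 negatively (against 22.4% and 24.7%). Over strain means Hsp90b1, the HSP90 of the endoplasmic reticulum, which shares its locus with Gm15344, had an r of 0.795 with Hsph1, and Hspa5 an r of 0.831 with the Hspa1b transcript (adjusted p = 1.7e-18 and 2.1e-22, limma).

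The cold-inducible RNA-binding genes Cirbp and Rbm3, whose mRNA is raised by mild cooling, ran against several members. Both passed negatively with Hsph1 over strain means (against 3.41% of all genes), at an r of -0.634 and -0.556 (adjusted p = 1.2e-09 and 7.5e-07, limma). Both also passed negatively with Hsp90aa1 (-0.439 and -0.514, against 0.753%), Hsp90ab1 (-0.459 and -0.502, against 1.25%) and Hspb1 (-0.403 and -0.354, against 2.79%), with Hspa1a and Dnajb1 it was Cirbp alone (-0.41, against 0.938%, and -0.408, against 0.959%), and with Hspa8 neither passed (-0.19 and -0.199). Within strains both passed negatively with Hsph1 (-0.364 and -0.349, against 2.72% of all genes) and Hsp90aa1 (-0.45 and -0.297, against 24.7%). With Hsp90ab1 it was Rbm3 alone (-0.333, and -0.132 for Cirbp, against 17.9%). Cirbp passed positively with the Hspa1b locus within strains (0.179, adjusted p = 0.048, limma, against 16.9% of all genes), where both had an r near 0 over strain means (0.0552 and 0.0414). With the Hspa1b transcript, both passed negatively over strain means (limma), and neither passed within strains (r from -0.0273 to -0.018). The r within strains was -0.0359 and -0.0668 with Hspb1 and 0.0254 and -0.13 with Hspa1a. Cirbp averaged 58.0 FPKM and Rbm3 33.6 FPKM over mice.

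The mRNA of heat shock factor 1 itself, Hsf1, passed positively within strains with Hsp90ab1 (r = 0.348, against 23.1% of all genes), Hspa1a (0.297, against 11.1%) and Dnajb1 (0.262, against 17.6%). So it did with the Hspa1b locus (0.221, against 16.9%) and Hspb1 (0.197, against 12.5%), and negatively with Hsp90aa1 (-0.278, against 24.7%). Of the 3 measured heat shock factors, 2 passed with each of these members, in the same directions. With Hspa1a the other was Hsf4 (0.254, at a locus shared with Nol3), while Hsf2 did not pass (-0.138). With Hsph1 the r of Hsf1 was 0.0267 within strains (adjusted p = 0.88, limma). Over strain means it was 0.339 and passed (adjusted p = 0.018, limma, against 3.47% of all genes). Hsf1 also passed there with Hspa8 (0.429, against 4.52%), Hsp90ab1 (0.348, against 2%) and Hspb1 (0.331, against 4.3%). None of 8 measured immediate early genes passed with Hsph1, Hspa1a or the Hspa1b transcript within strains. With the Hspa1b locus 6 of 8 passed positively (against 16.9% of all genes), with Dnajb1 4 (against 17.6%), with Hspb1 3 (against 12.5%) and with Hspa8 and Hsp90ab1 1 each (against 8.42% and 23.1%), while 5 passed negatively with Hsp90aa1 (against 24.7%). Over strain means 4 of 8 passed negatively with Hsph1 (against 3.41%), led by Btg2 (-0.352) and Dusp1 (-0.311), and none with another member.

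Of 9 glucocorticoid-responsive genes, 0 passed with Hsph1 within strains (against 4.21% of all genes positively and 2.72% negatively). With Dnajb1 it was 3 positively, the most for any member (against 17.6%). Over strain means 1 passed negatively with Hsph1 (against 3.41%), and 2 each negatively with Hsp90aa1 and Hsp90ab1 (against 0.753% and 1.25%). Positively, 1 each passed there with Dnajb1 and the Hspa1b locus (against 1.47% and 2.91%). Of 13 clock genes, Arntl passed positively with Hsph1 within strains (0.33) and Per1 and Cry2 negatively (against 4.21% and 2.72% of all genes). Over strain means Arntl again passed positively (0.391), and 5 of 13, led by Per3 (-0.47) and Per1 (-0.448), passed negatively (against 3.47% and 3.41%). Among the tissue markers, 5 of 5 thalamus genes passed positively with Hspb1 within strains (their sum, 17.4 to 381 FPKM, at r = 0.282) and 3 of 6 anterior pituitary genes did (against 12.5% of all genes). With Hsp90aa1, 3 of 5 blood genes passed negatively (their sum, 32.4 to 508 FPKM, at r = -0.303, against 24.7%) and 2 of 5 neuron genes positively (their sum at r = 0.228, against 22.4%). The part of these cells in the members' values was not tested.

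**Figure D4:**
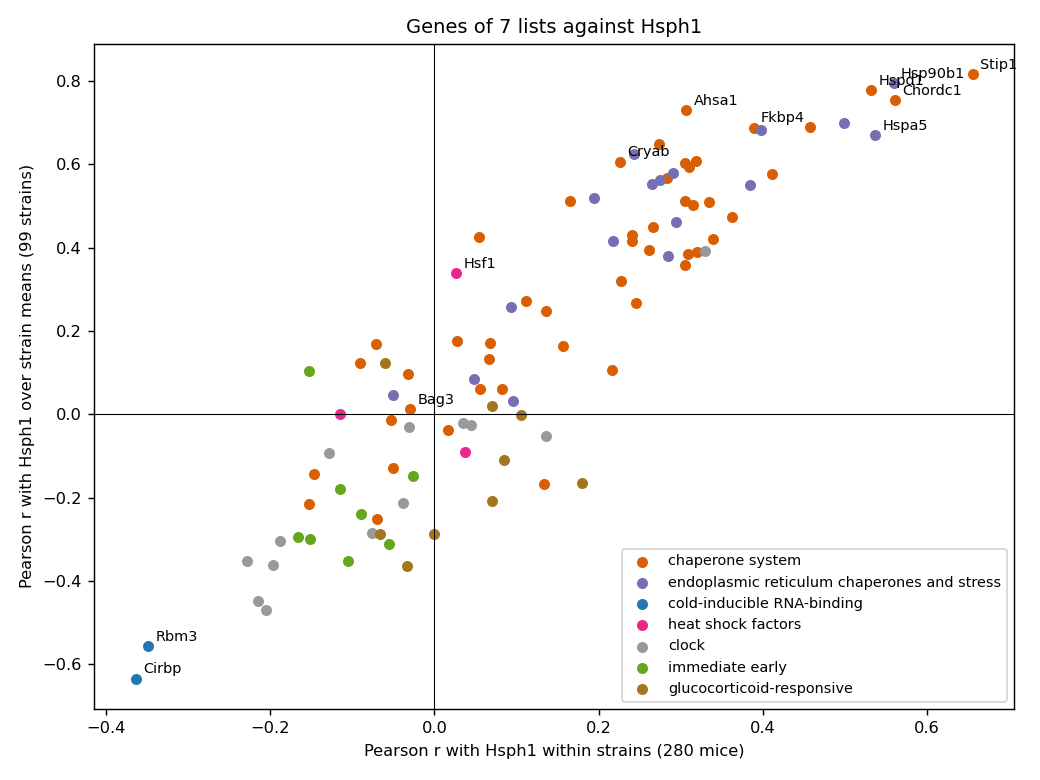
Pearson r with Hsph1 within strains (horizontal, 280 mice) and over strain means (vertical, 99 strains) for each measured gene of 7 lists, 1 point per gene coloured by list. Chaperone and endoplasmic reticulum genes fill the upper right, led by Stip1 (0.656 and 0.816), and Cirbp (-0.364 and -0.634) and Rbm3 lie at the lower left.

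In 36 strains, the mouse numbers in the labels fell into separate runs, set apart by a gap of more than 10, which allowed strain values to be compared between runs. Between the run means of these 36 strains, r was 0.668 for Hspa8 and 0.658 for Hsph1 (rho 0.695 and 0.589, permutation p = 3e-05 for each r), against a median of 0.276 over all genes. It was 0.49 for Hsph1 without the 2 farthest strains and 0.69 for Hspa8. The lowest were Hspa1a at 0.36 and the Hspa1b locus at 0.179 (permutation p = 0.031 and 0.29). In the test for differences between runs of a strain, 0.234% of all genes passed and 0 of 8 members (limma, with 4 at an unadjusted p under 0.05), and without CXB-3/ByJ replicate 3 Hspa1a passed (adjusted p = 0.0082, limma). What separates the runs is not given in the labels.

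At the level of single transcripts, 25 of the 31 deposited transcripts of the members differed between strains, against 49.8% of all 51024. The clearest was Hspa8. Transcript TCONS_00349783 (ENSMUST00000117557.1, chr9:40801302-40805200) had a strain share of 0.968 (adjusted p = 4.2e-114, limma), above that of 99.9% of transcripts. In 28 strains its mean was at most 1.22 FPKM and no mouse was above 3.65 FPKM, while in the other 71 strains the mean was at least 26.3 FPKM with a median of 90.0. That lowest mean, of CXB-3/ByJ, came from replicate 3, and without this library 29 strains stood against 70, whose means were at least 47.6 FPKM, with 4 of 7 CXB strains among the 29. The 28 strains included C57BL/6J, C57BLKS/J and C57L/J, the 3 of 25 inbred strains, with 6 of 18 AXB/BXA, 14 of 43 BXD, 2 of 6 BXH and 3 of 7 CXB strains. DBA/2J, A/J, C3H/HeJ and BALB/cJ averaged 86.5, 89.7, 98.6 and 99.1 FPKM.

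The other Hspa8 transcripts moved with this split, which was read from the values and is given without a test. TCONS_00349780 (ENSMUST00000153847.1) had a median strain mean of 1.04 FPKM in the 28 strains and 140 FPKM in the 71, and TCONS_00349770, an assembled variant of ENSMUST00000015800.9, had 166 and 22.0 FPKM. The Hspa8 gene level overlapped, at 315 to 508 FPKM in the 28 strains and 237 to 431 FPKM in the 71, but was shifted. The median strain mean was 374 FPKM in the 28 strains. In the 71 strains the median lay under 315 FPKM, the lowest strain mean of the 28. The sum of the 6 deposited transcripts was nearly level, with a median strain mean of 314 FPKM in the 28 strains and 304 FPKM in the 71. Most of the shift in the gene level therefore lay outside these 6 transcripts, and its source was not tested. In 6 strains, BXD-9/TyJ, BXD62, BXD70, BXD75, BXD85 and BXHA1, the transcripts TCONS_00349776 and TCONS_00349777 were both under 2 FPKM, and the mean of the first was at least 28.7 FPKM in all other 93 strains. Of these 6 strains, 5 ranked 1, 2, 3, 5 and 6 of 97 in the Hspa8 gene level, and BXD85 ranked 27. The reads were aligned to mm10, the genome of C57BL/6J, and a part of the alignment or of the assembly in these differences was not tested.

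Of the 97 strains with at least 2 mice, 95 had all mice on 1 side of 10 FPKM for TCONS_00349783. The exceptions were CXB-3/ByJ, where replicate 3 had 78.8 FPKM and its mates 0.00718 and 1.5e-06 FPKM, and PL/J, with 5.99 FPKM in replicate 1 and 93.9 FPKM in replicate 2. No label accounts for either.

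**Figure D5:**
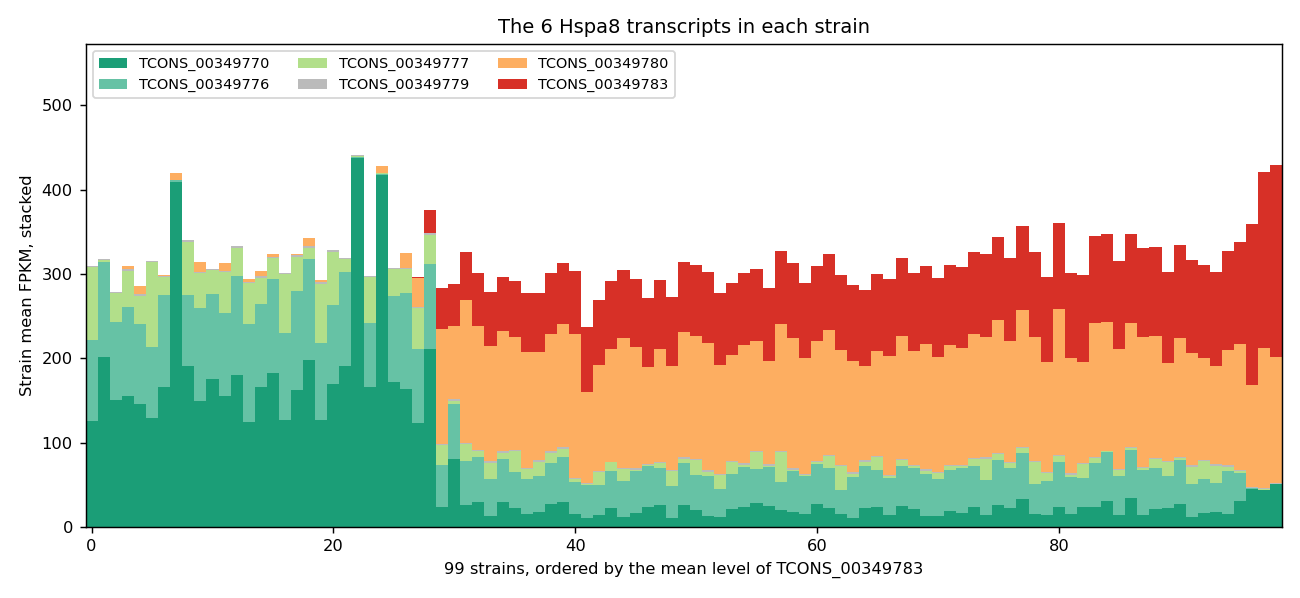
Strain means of the 6 deposited Hspa8 transcripts in FPKM, stacked, in 99 strains ordered by the mean of TCONS_00349783 (red). Red and orange are nearly absent from the first 28 strains and make up most of the bar in nearly all others, while the height of the bars overlaps, at 279 to 441 FPKM and 237 to 429 FPKM.

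The low Hsp90aa1 level of A/J turned on 1 short transcript. TCONS_00082661 (ENSMUST00000129005.1, chr12:110692709-110693180, 325 nt in 2 exons) averaged 194 FPKM, while the gene averaged 493.7 FPKM and FPKM divide by length, and its strain share was 0.78 (adjusted p = 9.6e-41, limma). It was 62.9 FPKM in A/J and 219 FPKM in C57BL/6J. In A/J, MA/MyJ, KK/HlJ and 8 of the 18 AXB/BXA strains its mean was 62.9 to 106 FPKM, and in the other 88 strains 157 to 279 FPKM. Across the same split, the 2 transcripts with all 11 exons summed to 145 to 194 FPKM in the 11 strains and 149 to 226 FPKM in the 88, so these overlapped.

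With the 11-exon transcripts in place of the gene, chosen after seeing the data, A/J no longer differed past the threshold from C57BL/6J (162 against 170 FPKM, log2 difference -0.08 ± 0.091, SE, adjusted p = 0.69, limma), and BALB/cJ was higher (226 against 170 FPKM, log2 difference 0.40 ± 0.091, SE, adjusted p = 0.00055, limma). The r with Hsph1 was then 0.671 within strains and 0.834 over strain means, and that with Hsp90ab1 was 0.672 over strain means.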

How the data were processed

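Expression was measured by unstranded mRNA sequencing of the hypothalamus of 282 mice. The authors aligned reads to mm10 (STAR 2.3.1, FastQC), built transcripts strain by strain (Cufflinks 2.2.0), joined these to GENCODE M2 and deposited FPKM scaled between mice (Cuffnorm 2.2.1), per the submitters' processing notes and the study's methods. FPKM hold no read counts, so the counts behind each gene's level are unknown here and precision is the spread between mice. The mapped reads per mouse, which the study lists, were used only as a covariate in an alternative. Columns of other series numbered 0.

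Mice were grouped by the strain in their labels. A mouse named for different strains in its title and strain label, and BXD-12/TyJ replicate 2, were left out. Values were taken as log2(FPKM + 1), with no filter on top of the authors', and tested over all 14079 genes or 51024 transcripts with limma 3.58.1 in R 4.3.3 and Benjamini-Hochberg adjustment at 0.05. The strain share is the intraclass correlation, whose estimate can fall below 0. Correlations and ratios had 100000 permutations each (numpy 2.4.6, Python 3.11.15). The tests were checked on simulated data. Genes named were the 8 members, the fixed lists, the 5 highest and 3 lowest within-strain r per member among genes with 1 name, genes among the 20 highest of at least 3 members, the extreme strains with at least 2 mice and the mice farthest from their strain. Other genes, transcripts and strains were chosen after their values were seen. The members and lists were chosen with earlier results of these data known. Alternatives were pseudocounts of 0.1 and 0.01, quantile normalization, only genes averaging 1 FPKM or more, covariates (the mapped reads and their unique share, or 5 components), rank tests, FPKM without log, other gaps of mouse numbers, the 2 omitted mice put back, and each replicate left out. Leaving out CXB-3/ByJ replicate 3, the Hspa1b transcript and the 11-exon Hsp90aa1 transcripts were added after seeing the data.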

Additional observations from a re-analysis of the deposited data

How the results depend on the processing

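All 8 members passed the strain test in each alternative run for it, except that 7 passed without replicate 2, where the Hspa1b locus was lost. Leaving out each replicate in turn moved the genes that passed the strain test from 11444 to between 6413 and 9849, the parental calls from 4 to between 1 and 3, the transcripts of members from 25 to between 9 and 22, the pairs within strains from 20 to between 3 and 14, and the strain share of the HSP90 ratio from 0.311 to between 0.156 and 0.409. The pairs within strains fell to 9 with quantile normalization, 8 with 5 components, 13 with Spearman's rho and 13 without CXB-3/ByJ replicate 3, and the pairs over strain means from 17 to 10 with quantile normalization. Without CXB-3/ByJ replicate 3, 63 genes in place of 33 differed between mouse number runs, with 1 member in place of 0. The r of the Hspa1b locus with Hsp90aa1 changed sign to 0.0368 with 5 components and 0.059 with the Hspa1b transcript, and with quantile normalization that of the locus with Hsp90ab1 became -0.0803 and that of Hsp90ab1 with Hspb1 -0.00815. The causes were not tested, beyond the smaller number of mice when a replicate is left out. No paired analysis was possible because replicate numbers only name the mice of a strain. FPKM hide the read counts per gene, so small levels such as that of Hspa1a carry an unknown counting error.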

Other observations

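Dnaja1, another J-domain partner of HSP70 and a gene of the chaperone list, was at 377.8 FPKM in BXD71 replicate 1 and at 448.9 FPKM in BXD-14/TyJ replicate 2. It was at 20.7 to 63.4 FPKM with a median of 28.2 in the other 280 mice.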
